A study of Mus musculus with 2 samples.

Results

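TRBV29 is a variable gene segment of the mouse T cell receptor beta chain, known in the older nomenclature as Vβ7. All productive beta chains (TRB) whose assembled sequence carried TRBV29 as its variable segment were taken from 2 single-cell TCR libraries of thymic CD4 single positive (SP) T cells, and every chain that met this rule was kept. They numbered 397 of 9322 TRB chains, of which 170 of 4141 were in the library from WT mice (strain C57BL/6J) and 227 of 5181 in the library from Btla-/- mice (C57BL/6-Btla KO), which lack the co-inhibitory receptor BTLA. Mice of both genotypes were 8 to 12 weeks old. The treatment field of the labels held the genotype, and no other treatment was named there. The cells were enriched by negative selection with a naive CD4 T cell kit, and how many animals were pooled into a library was not stated. Each genotype was therefore 1 sample, no test between genotypes was possible, and every interval below is an exact 95% Clopper-Pearson interval unless another is named. These intervals cover counting error only, not differences between mice. The transcripts sequenced were those of the TCR genes, so neither the genotype nor CD4 and CD8 expression could be checked in these data.

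A beta chain is assembled in the thymus by joining a V, a D and a J segment. The V segment encodes the CDR1 and CDR2 loops, which lie mostly over the MHC molecule, and the V-D-J junction encodes CDR3, the loop that mostly contacts the peptide. Beta chains that use Vβ7 are, with those of Vβ8 (TRBV13) and Vβ2 (TRBV1), the usual partners of the invariant Vα14-Jα18 alpha chain (TRAV11-TRAJ18) of natural killer T (iNKT) cells, and they also occur throughout the conventional CD4 repertoire.

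The TRBV29 gene lies on chromosome 6 of GRCm38 at 6:41271394-41271881 on the plus strand. Exon 1 spans 41271394-41271451 and encodes most of the leader peptide, and exon 2 spans 41271587-41271881 and encodes the V domain. TRBV30 begins 9495 bases downstream, TRBD1 261.32 kb downstream and TRBJ1-1 261.983 kb downstream. The GENCODE annotation lists TRBV29 as a functional V gene, whereas RefSeq lists it as a V segment pseudogene. All 397 chains were productive. From framework 1 to framework 3 the 270 bases before the CDR3 were identical to the genome in 170 of 170 WT chains and 227 of 227 Btla-/- chains, so the V gene call of every member was exact over this stretch.

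The germline stretches that carry the results are given below from GRCm38, 5′ to 3′ on the plus strand. The first is the 3′ end of the gene from the conserved cysteine codon onwards (6:41271865-41271920), with the recombination signal after it and the heptamer and nonamer of that signal in capitals, separated by a 23-base spacer. The coding part, 17 bases long, is what every TRBV29 CDR3 starts from before trimming. The loops that all members share are CDR1 (6:41271673-41271687) and CDR2 (6:41271739-41271756).
TRBV29 end and recombination signal: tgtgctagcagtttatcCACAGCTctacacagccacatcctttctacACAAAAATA
TRBV29 CDR1: atgagccatgaaaca
TRBV29 CDR2: tcatacgatgttgatagt

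The WT library held 4040 cells and 80347 unique molecular identifiers (UMIs, tags that mark single captured transcripts), and the Btla-/- library 5077 cells and 75456 UMIs. TRBV29 contigs took 3088 of the WT UMIs and 3406 of the Btla-/- UMIs. No cell carried more than 1 TRBV29 chain. Of the cell barcodes, 30 occurred in both libraries, and 1 WT and 4 Btla-/- TRBV29 cells were among them.

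TRBV29 was a gene of middle rank in both libraries, and its share did not separate them. It made up 4.11% of WT TRB chains (interval 3.52 to 4.75%) and 4.38% of Btla-/- TRB chains (3.84 to 4.97%), a difference of 0.276 percentage points with overlapping intervals. Of the 21 V genes that reached 1% of TRB chains in either library, 9.52% had intervals that lay apart between the libraries, and TRBV29 was not among them. Among the 22 V gene calls, TRBV29 ranked 14th in WT, between TRBV13-3 at 4.54% and TRBV31 at 4.03%. It ranked 11th in the Btla-/- library, between TRBV1 at 5.23% and TRBV2 at 4.3%. Its interval overlapped those of both neighbours in each library, so the order at this position was not resolved.

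**Figure D1:**
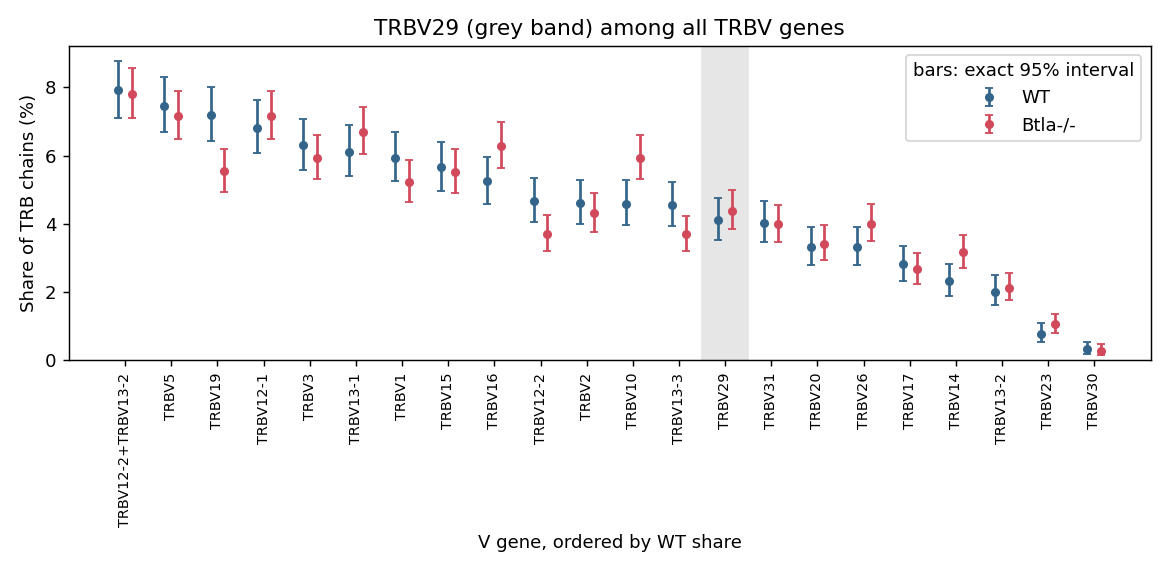
Share of TRB chains (%) that used each V gene in the WT (blue) and Btla-/- (red) libraries, with exact 95% intervals and the genes ordered by their WT share. TRBV29, in the grey band, sits at 4.11% and 4.38%, in the middle of the order and with overlapping intervals.

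Which J segments TRBV29 had joined was set against all other TRB chains of the same library. All 12 TRBJ segments were found with TRBV29 in both libraries. In WT, TRBJ2-7 was the most frequent partner with 24 of 170 chains (14.1%), followed by TRBJ1-6 and TRBJ2-1 with 17 chains each (10.0%). The leading partners in the Btla-/- library were TRBJ1-1 with 36 of 227 chains (15.9%), then TRBJ1-2 and TRBJ1-4 with 27 each (11.9%), and TRBJ2-7 followed with 26 (11.5%). TRBJ2-7, TRBJ1-1 and TRBJ2-1 were also common among other chains, and their TRBV29 intervals included or overlapped those values.

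The intervals of 2 of 12 TRBJ segments lay apart from those of other chains in each library, and they were different segments. This has to be read against a background of 6.02% of V-J pairs apart in WT and also 6.02% without BTLA, over 216 pairs of 18 V genes and 12 TRBJ segments. In WT both were rarely used segments of the first J cluster. TRBJ1-6 was joined in 10.0% of TRBV29 chains (5.93 to 15.5%) against 3.88% of other chains (3.30 to 4.53%). TRBJ1-5 was joined in 7.65% (4.13 to 12.7%) against 3.22% (2.70 to 3.82%), and it lay no longer apart when each distinct chain was counted once. Without BTLA, TRBJ1-2 was joined in 11.9% (7.99 to 16.8%) against 6.72% (6.04 to 7.46%), and TRBJ2-3 in 3.08% (1.25 to 6.25%) against 9.51% (8.70 to 10.4%).

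None of these 4 segments lay apart the same way in both libraries, which 1.39% of all V-J pairs did. For TRBJ1-6 the Btla-/- share was 3.52%, next to 3.57% in other chains. For TRBJ2-3 the WT share was 8.82%, next to 8.74% in other chains, and for TRBJ1-2 it was 5.88%, next to 6.47%. TRBJ1-5 was also the higher in Btla-/- TRBV29 chains, at 6.61% (3.75 to 10.7%) against 3.69% (3.19 to 4.26%), with overlapping intervals. Compared directly between the libraries, none of the 12 TRBJ shares of TRBV29 lay apart, and 1.39% of all V-J pairs did.

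**Figure D2:**
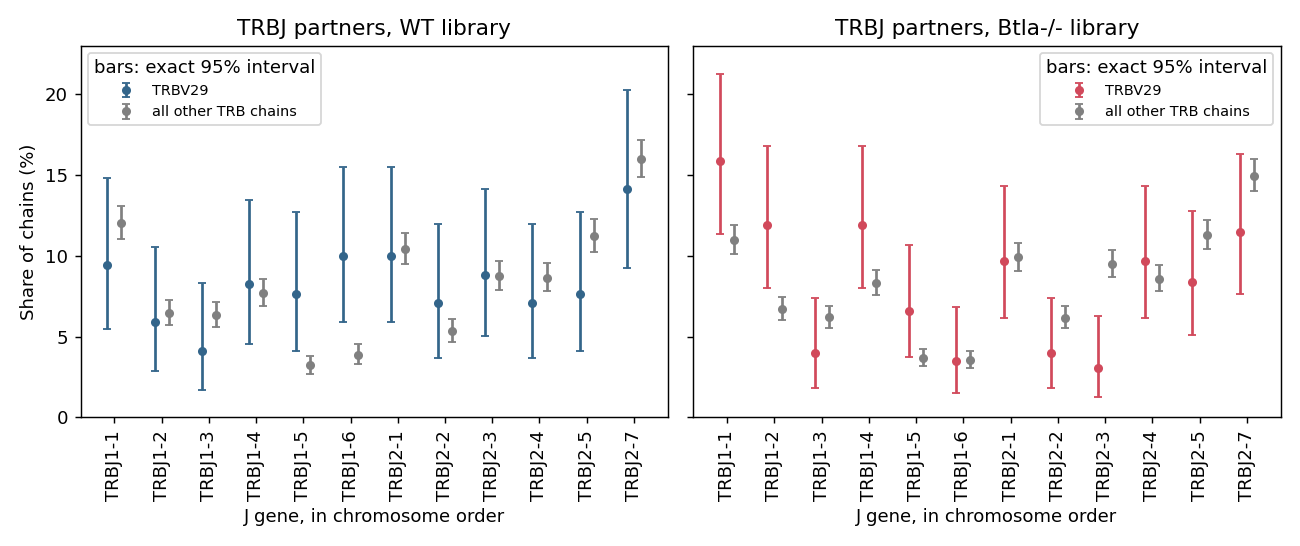
Share of chains (%) joined to each TRBJ segment for TRBV29 chains (coloured) and all other TRB chains (grey) in the WT (left) and Btla-/- (right) libraries, with exact 95% intervals. TRBV29 sits above the other chains at TRBJ1-5 and TRBJ1-6 in WT, and above them at TRBJ1-2 and below them at TRBJ2-3 in the Btla-/- library.

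By J cluster, the TRBJ1 segments together took 77 of 170 WT TRBV29 chains (45.3%, 37.7 to 53.1%) against 39.6% of other chains (38.1 to 41.1%), the third highest of 18 V genes. They took, in the Btla-/- library, 122 of 227 (53.7%, 47.0 to 60.4%) against 39.5% (38.1 to 40.9%), the highest of the 18, and these intervals lay apart. TRBV1 was second there at 48.3% (42.3 to 54.5%), and TRBV17 was lowest at 30.4% (22.9 to 38.8%). The TRBV1 interval there also lay above that of the chains other than TRBV29, so a high TRBJ1 share was not particular to TRBV29. How many of the 18 genes lay apart from their own other chains was not computed. The intervals of TRBV29 itself overlapped between the libraries. The constant gene matched the cluster of the J segment in all 170 WT chains and in all 225 Btla-/- chains that had one called. A D segment was called in few chains: TRBD1 in 16.5% of WT and 14.5% of Btla-/- TRBV29 chains, and TRBD2 in 1.76% (interval 0.365 to 5.07%) and 3.52% (interval 1.53 to 6.83%), respectively. Among other chains TRBD2 was called in 7.0% (6.23 to 7.84%) and 7.17% (6.46 to 7.92%), so the WT intervals lay apart and the Btla-/- intervals overlapped. The WT TRBV29 value rests on 3 chains, and the other V genes were not compared in this way. Other chains had TRBD2 with a TRBJ1 segment in only 3 of 3971 WT and 1 of 4954 Btla-/- chains. The TRBD2 share is thus not independent of the share of the TRBJ clusters. No TRBV29 chain joined TRBD2 to a TRBJ1 segment, a join that the order of the segments on the chromosome does not allow by deletion.

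The V genes whose TRBJ usage was most like that of TRBV29 were TRBV2 and TRBV13-3, by the mean over both libraries among V genes with at least 100 chains in each. Likeness was measured as the total variation distance, the share of chains that would have to change J segment to make the usages equal. It was 0.134 in WT and 0.141 in the Btla-/- library for TRBV2, and 0.150 and 0.130 for TRBV13-3. In WT alone TRBV31 was nearest, at 0.131, but it lay at 0.217 in the Btla-/- library. Mean distances from TRBV29 to the other genes ran from 0.137 for TRBV2 to 0.234 for TRBV17. The TRBJ usage of TRBV29 in one library lay 0.195 from that in the other, within this range. It was the largest distance between the libraries of the 18 genes, with TRBV13-3 next at 0.194. That it exceeded the distances to TRBV2 and TRBV13-3 says little, because these were picked as the nearest genes. The distance between libraries grows as chains become fewer, and it was given no test.

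At the amino acid level most TRBV29 CDR3s began with the residues CASS that the germline end encodes. They did so in 142 of 170 WT chains (83.5%, 77.1 to 88.8%) and 195 of 227 Btla-/- chains (85.9%, 80.7 to 90.2%), against 67.2% and 68.0% of other chains. Leucine at position 5, encoded by the next germline codon tta, was the most frequent residue there, with 64 WT chains (37.6%) and 85 Btla-/- chains (37.4%). In 51 of the 64 WT and 60 of the 85 Btla-/- chains it was still encoded by tta, and in the remainder by another leucine codon. CASSL opened 37.6% of WT (30.3 to 45.4%) and 37.0% of Btla-/- TRBV29 CDR3s (30.7 to 43.6%), against 16.9% and 17.4% of other chains. For comparison, it opened 5.03% and 2.44% of TRBV19 CDR3s and 0.587% and 0.475% of TRBV13 CDR3s. Of the 672 other WT chains with CASSL, 15 were TRBV19 and 5 TRBV13, and of the 863 Btla-/- ones 7 and 5. The rest used further V genes, so this start was not particular to TRBV29.

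Phenylalanine at position 5 was also more frequent than in other chains, at 12.9% (8.29 to 18.9%) against 2.77% in WT and 9.69% (6.17 to 14.3%) against 3.43% in the Btla-/- library. Phenylalanine differs from the germline leucine codon only at its last base. Proline took 12.4% and 15.9%, next to 12.6% and 13.0% of other chains. Serine took 8.24% of WT chains (4.58 to 13.4%) against 4.68% of other chains (4.05 to 5.39%), with overlapping intervals. In the Btla-/- library it took 12.8% (8.73 to 17.8%) against 4.91% (4.32 to 5.54%), with intervals apart.

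The CDR3 nucleotide sequences gave how much of the 17 germline bases remained. TRBV29 had lost more of its V end than most V genes, and by about the same amount in both libraries. On average 13.2 bases (SD 2.21, n = 170 chains) matched the germline end in WT and 13.1 (SD 2.22, n = 227) in the Btla-/- library. The mean loss was thus 3.84 and 3.93 bases, against 2.57 and 2.58 in other chains. It ranked second of 17 genes in each library, after TRBV15 at 4.0 and 4.01. The whole V end remained in 18 of 170 WT chains (10.6%, 6.40 to 16.2%) and 22 of 227 Btla-/- chains (9.69%, 6.17 to 14.3%), against 23.9% of other chains in both. Among these 18 and 22 chains, 12 and 11 went on with the base that a palindromic (P) addition from an opened hairpin would give. Among other chains with a whole V end, 481 of 904 in WT and 576 of 1111 in the Btla-/- library did. An added base or a D base can be the same base, so these are not counts of P additions.

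The trimming points were spread over several positions. A kept length of 13 bases was found in 18 WT and 29 Btla-/- chains, and its interval overlapped that at 14 bases in each library. Separate peaks were therefore not resolved, and cells with the same sequence were counted separately. In WT 30 chains kept 12 bases, which is the end of the codons for CASS, and 28 chains each kept 14 and 15. Of the Btla-/- chains, 53 kept 12 bases, 36 kept 14 and 32 kept 11. At least 12 bases remained in 74.7% of WT and 78.0% of Btla-/- chains, and at least 15, which include the whole tta codon, in 30% and 26.0%. A base added after trimming can match the germline by chance, so these values are upper estimates of what was kept.

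**Figure D3:**
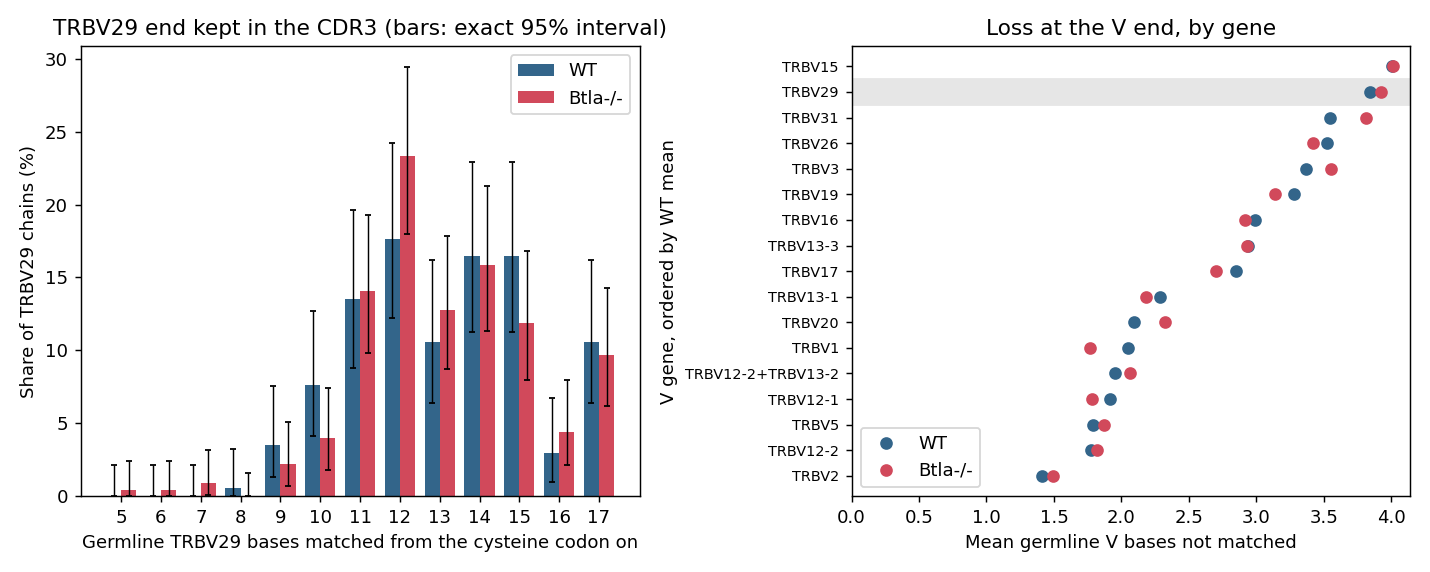
Left, share of TRBV29 chains (%) by the number of germline bases matched from the cysteine codon on, in WT (blue) and Btla-/- (red), with exact 95% intervals. Right, mean number of germline V bases not matched for 17 V genes in each library, where TRBV29 in the grey band is second after TRBV15 at 3.84 and 3.93 bases.

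At the J end, TRBV29 chains had lost on average 3.18 germline bases in WT (SD 2.68) against 2.60 in other chains, the highest mean of 17 V genes, and 2.59 (SD 2.59) against 2.67 in the Btla-/- library. The middle, which holds D bases and added bases, had a mean of 10.2 bases in WT (SD 4.28) against 10.5, and 10.7 (SD 4.03) against 10.7 in the Btla-/- library.

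CDR3s of TRBV29 were shorter on average than those of other chains in WT. The mean was 13.9 amino acids in WT (SD 1.35, 95% interval of the mean 13.7 to 14.1, range 9 to 17) against 14.2 in other chains (14.2 to 14.3), a difference of -0.348 residues with intervals apart. TRBV29 was the 17th longest of 18 V genes there. When each distinct chain was counted once the WT difference was -0.258 and the intervals overlapped. The Btla-/- mean was 14.1 (SD 1.56, 13.9 to 14.3, range 10 to 17) against 14.3, a difference of -0.168 with overlapping intervals. With other chains weighted to the TRBJ usage of TRBV29, the differences were -0.403 in WT, still apart, and -0.0904 in the Btla-/- library. CDR3s of at least 16 residues made up 10.6% (6.40 to 16.2%) of WT TRBV29 chains against 18.4% (17.2 to 19.7%) of other chains, and 18.5% against 19.4% in the Btla-/- library. None of the 8 repeated WT TRBV29 sequences reached 16 residues. Repeats thus lowered the WT TRBV29 share, which was not recomputed on distinct chains. The gap between the WT intervals is therefore shown only with every chain counted. Of the single lengths, 1 lay apart in each library, and the other V genes were not compared in this way. CDR3s of 13 residues made up 22.4% (16.3 to 29.4%) of WT TRBV29 chains against 15.01% (13.9 to 16.2%) of other chains. Among these 38 WT chains were repeated sequences of 6, 4 and 3 cells. The WT call at this length thus rests in part on repeated cells, and the interval was not recomputed on distinct chains. CDR3s of 10 residues made up 3.08% (1.25 to 6.25%) of Btla-/- TRBV29 chains against 0.828% (0.595 to 1.12%) of other chains, whereas 1 WT chain had this length. No TRBV29 CDR3 in either library was longer than 17 residues.

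**Figure D4:**
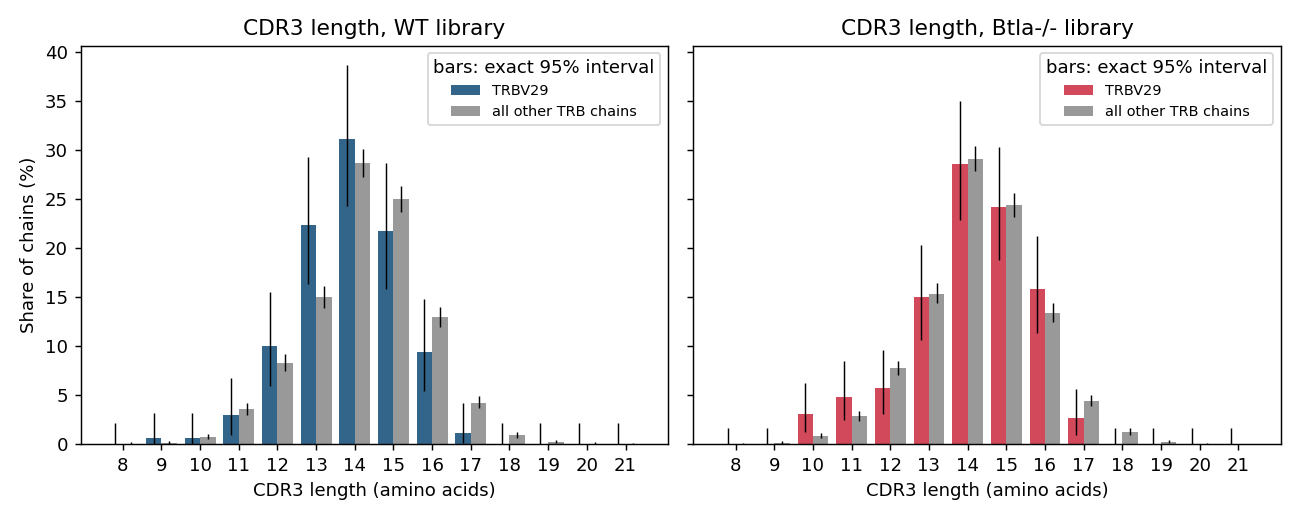
CDR3 length in amino acids of TRBV29 chains (coloured) and all other TRB chains (grey) as a share of chains (%) in the WT (left) and Btla-/- (right) libraries, with exact 95% intervals. In WT the TRBV29 share of CDR3s with at least 16 residues was 10.6% against 18.4%, and in the Btla-/- library 18.5% against 19.4%. Every chain was counted, repeats included, and repeats lowered this WT TRBV29 share.

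Hydrophobic residues at CDR3 positions 6 and 7, a doublet that has been linked to self-reactivity of T cells, were rare with TRBV29. Both positions were hydrophobic in 3 of 170 WT chains (1.76%, 0.365 to 5.07%) and 1 of 227 Btla-/- chains (0.441%, 0.0112 to 2.43%). The shares in other chains were 1.06% and 1.13%, within these intervals.

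TRBV29 CDR3s that recurred in several cells were most common in WT. There, 26 of 170 chains (15.3%, 10.2 to 21.6%) belonged to 8 nucleotide sequences found in more than 1 cell, against 6.42% of other chains (5.68 to 7.23%), and this was the highest share of the 18 V genes. Among Btla-/- chains, 17 of 227 (7.49%, 4.42 to 11.7%) belonged to 8 such sequences, against 8.74% of other chains. TRBV29 ranked 12th of the 18 there, and TRBV17 was highest at 18.8% (12.7 to 26.4%). A high share of repeats was thus not particular to TRBV29. The WT and Btla-/- intervals of TRBV29 overlapped. The sequences found in most cells are given from the cysteine codon to the end of the CDR3, with the bases that match neither germline end in capitals.
WT, TRBJ2-1, 6 cells: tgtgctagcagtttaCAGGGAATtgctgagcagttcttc
WT, TRBJ2-7, 4 cells: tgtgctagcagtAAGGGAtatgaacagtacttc
WT, TRBJ1-6, 4 cells: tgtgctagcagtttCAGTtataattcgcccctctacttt
Btla-/-, TRBJ1-1, 3 cells: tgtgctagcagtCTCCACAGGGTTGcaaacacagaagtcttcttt
Btla-/-, TRBJ1-1, 2 cells: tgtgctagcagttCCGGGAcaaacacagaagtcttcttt
Btla-/-, TRBJ1-2, 2 cells: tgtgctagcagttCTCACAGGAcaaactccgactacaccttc
Btla-/-, TRBJ2-1, 2 cells: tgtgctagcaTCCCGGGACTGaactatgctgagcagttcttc

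The most repeated WT sequence was carried by 4 to 12 UMIs per cell, and none of its 6 cells had an alpha chain, so that a shared receptor could not be checked. The WT sequence with TRBJ2-7 had no alpha chain in its 4 cells either. Of the 4 cells with the TRBJ1-6 sequence, 2 had an alpha chain, and it was the same TRAV12-3 TRAJ49 chain in both. The last 3 sequences listed, all Btla-/-, had the same alpha chain in both of their cells, TRAV14N-3 TRAJ31, TRAV12-1 TRAJ45 and TRAV6N-7 TRAJ7 respectively, whereas the 3 cells with the first had none. The 7 Btla-/- repeats other than the first were all of 2 cells.

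The libraries had no TRBV29 CDR3 in common, at the nucleotide or at the amino acid level, out of 151 distinct amino acid sequences in WT and 218 in the Btla-/- library. Among the 18 V genes the number of shared amino acid sequences ran from 0 to 3. TRBV19, with 290 and 274 distinct sequences, also shared 0, so the absence of shared sequences was not particular to TRBV29. Between the libraries 5 pairs of TRBV29 CDR3s of equal length differed at 1 residue. In WT 3 TRBV29 CDR3 amino acid sequences were also found with another V gene of the same library, and in the Btla-/- library 6 were.

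An alpha chain (TRA) was recovered in 66 of 170 WT TRBV29 cells (38.8%, 31.5 to 46.6%) and in 78 of 227 Btla-/- TRBV29 cells (34.4%, 28.2 to 40.9%). In other TRB cells the shares were 41.9% (40.3 to 43.4%) and 34.6% (33.3 to 36.0%). The intervals overlapped within each library. Pairing was therefore unknown for most TRBV29 cells. A further TRB chain was present in 11 of 170 WT TRBV29 cells (6.47%, 3.27 to 11.3%) against 3.15% of other TRB cells (2.62 to 3.75%), and in 7 of 227 Btla-/- TRBV29 cells (3.08%) against 3.34%. A cell with more than 1 TRB chain had more chances to count as a TRBV29 cell, and other cells were those without TRBV29. The TRBV29 share was therefore raised by construction, and the shares cannot be compared directly. A cell that truly carries a second beta chain and a droplet that held more than 1 cell cannot be told apart here.

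TRBV29 paired with a broad set of alpha chains, 69 in WT and 86 in the Btla-/- library, which used 47 and 49 TRAV genes. The leading TRAV subgroups in WT were TRAV7 with 11 chains (15.9%), TRAV14 with 9 (13.0%), and TRAV12 and TRAV13 with 8 each (11.6%). Those in the Btla-/- library were TRAV6 with 17 chains (19.8%, 12.0 to 29.8%, against 15.2% in other cells), TRAV14 with 11 (12.8%), and TRAV7 and TRAV12 with 10 each (11.6%). TRAV6 in WT was found in 7 chains (10.1%, 4.18 to 19.8%) against 16.2% in other cells. In WT none of the 20 TRAV subgroups lay apart from its share in other TRB cells, where 0.556% of all pairs of a V gene and a TRAV subgroup did. Among Btla-/- cells 1 did, TRAV11, where 0.833% of all pairs did. TRAV11 accounted for 4 of 86 alpha chains (4.65%, 1.28 to 11.5%) in Btla-/- TRBV29 cells and 0.452% (0.195 to 0.888%) in other cells.

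The TRAJ segments nearest to the constant gene, TRAJ1 to TRAJ30, took 31 of 69 alpha chains in WT TRBV29 cells (44.9%, 32.9 to 57.4%) against 48.5% (46.1 to 50.8%) in other cells. Among Btla-/- cells they took 60 of 86 (69.8%, 58.9 to 79.2%) against 57.1% (54.7 to 59.4%), with intervals that overlapped. Between the libraries the intervals lay apart for TRBV29 cells and for other cells alike, higher in the Btla-/- library in both.

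All TRAV11 chains in TRBV29 cells were TRAV11-TRAJ18, the alpha chain of iNKT cells. Of the Btla-/- cells, 4 of 78 TRBV29 cells with an alpha chain had it (5.13%, 1.41 to 12.6%) against 5 of 1657 other TRB cells (0.302%, 0.0980 to 0.703%), with intervals apart. In WT 1 of 66 had it (1.52%, 0.0384 to 8.16%) against 7 of 1607 (0.436%, 0.175 to 0.895%), with overlapping intervals. The WT and Btla-/- intervals of TRBV29 cells overlapped as well. The counts behind these shares were small, and the Btla-/- intervals overlapped when contigs of fewer than 3 UMIs were left out. In WT the most frequent V gene call of TRAV11-TRAJ18 cells was TRBV12-2+TRBV13-2, with 3 of 8 chains. TRBV1, TRBV13-1, TRBV13-2, TRBV13-3 and TRBV29 had 1 each. Among Btla-/- cells TRBV29 had 4 of 9 chains and TRBV12-2+TRBV13-2 had 2, and TRBV5, TRBV13-1 and TRBV15 had 1 each. TRAV1-TRAJ33, the alpha chain of mucosal-associated invariant T cells, was found in 0 of 66 WT and 0 of 78 Btla-/- TRBV29 cells, which allows shares of up to 4.55% and 3.85% by the limit of 3 counts, and up to 5.44% and 4.62% by the exact interval.

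The beta CDR3s of these 5 cells are shown because they were all different, with the bases matching neither germline end in capitals.
WT, TRBJ1-2: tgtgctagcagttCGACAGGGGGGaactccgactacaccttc
Btla-/-, TRBJ1-1: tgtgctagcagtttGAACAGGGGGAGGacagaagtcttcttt
Btla-/-, TRBJ1-4: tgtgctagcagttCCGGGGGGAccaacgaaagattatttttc
Btla-/-, TRBJ2-4: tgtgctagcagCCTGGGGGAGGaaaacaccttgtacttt
Btla-/-, TRBJ2-5: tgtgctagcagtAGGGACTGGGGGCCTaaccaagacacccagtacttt

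Their alpha CDR3s, by contrast, were the same 15 residues long and differed only in codon 4, which is in capitals below.
WT: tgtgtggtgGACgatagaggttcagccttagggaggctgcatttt
Btla-/-, TRBJ1-1 and TRBJ1-4: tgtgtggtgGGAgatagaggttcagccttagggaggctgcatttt
Btla-/-, TRBJ2-4: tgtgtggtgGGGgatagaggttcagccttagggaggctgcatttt
Btla-/-, TRBJ2-5: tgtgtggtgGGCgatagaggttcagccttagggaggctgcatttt

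The 4 Btla-/- alpha chains thus encoded glycine at this position by 3 different codons, and the WT chain encoded aspartate. The alpha contigs rested on 1 UMI in the WT cell and on 2, 4, 2 and 3 UMIs in the Btla-/- cells, in the order of the beta chains above.

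The number of UMIs behind a TRBV29 contig ranked 8th of 18 V genes in WT and 4th in the Btla-/- library. The median was 14 UMIs per contig in WT (95% interval of the median 11 to 17, quartiles 7 and 24, range 2 to 123) against 13 in other TRB contigs (13 to 14). In the Btla-/- library it was 12 (11 to 14, quartiles 7 and 20, range 2 to 117) against 10 (10 to 10), with intervals apart. Contigs of fewer than 3 UMIs numbered 1 in WT and 4 in the Btla-/- library. Each TRBV29 UMI was supported by more reads than in other TRB contigs, with a median of 425 reads per UMI (401 to 437) against 332 (328 to 337) in WT and 357 (341 to 377) against 291 (288 to 294) in the Btla-/- library. This ranked second of 18 V genes in both libraries, after TRBV31. The median contig length of TRBV29 was 512 bases in WT and 513 in the Btla-/- library, against 552 and 547 in other TRB contigs, and its part in the reads per UMI was not tested. The UMI count of a contig reflects both the amount of transcript in the cell and its capture, which cannot be told apart.

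**Figure D5:**
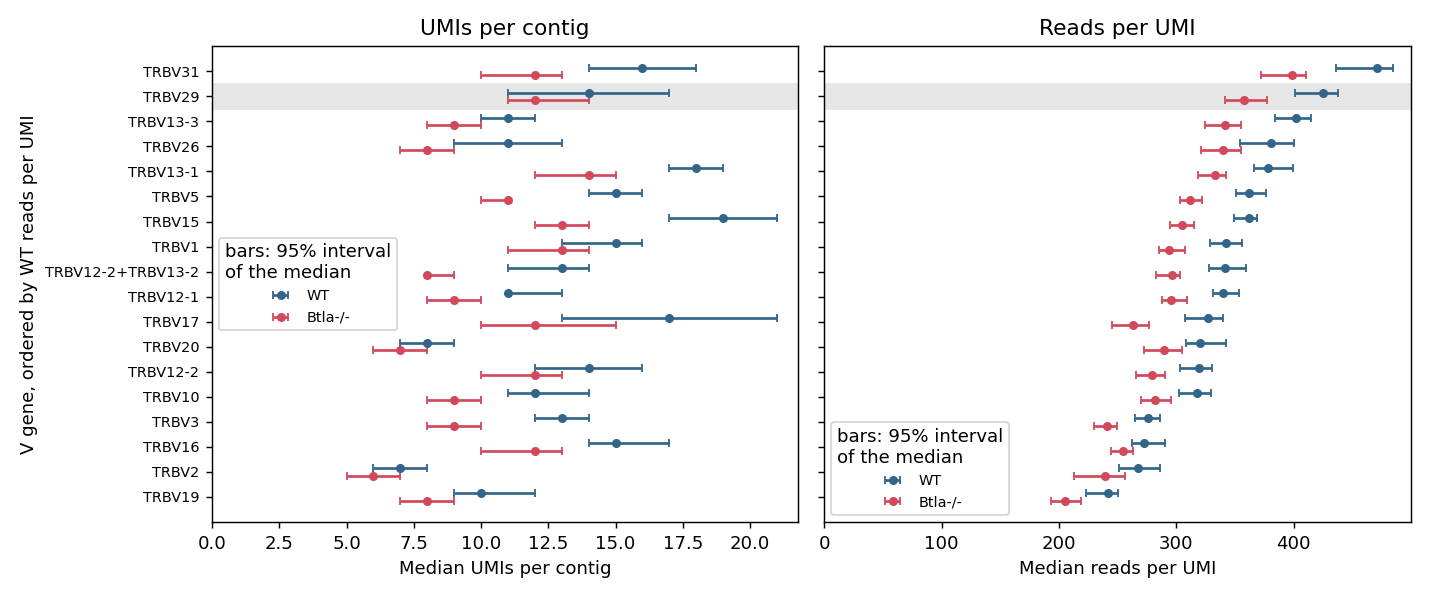
Median UMIs per contig (left) and median reads per UMI (right) for 18 V genes in the WT (blue) and Btla-/- (red) libraries, with 95% intervals of the median, ordered by WT reads per UMI. TRBV29, in the grey band, has 14 and 12 UMIs per contig and is second after TRBV31 in reads per UMI, at 425 and 357.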

How the data were processed

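The 10x Genomics V(D)J workflow was applied to CD4 SP thymocytes, with 1 library per genotype. Per the labels, the authors assembled contigs with Cell Ranger 7.2.0 on GRCm38. The deposited contig annotations give the counts of reads and of UMIs for each contig, not normalized, for called cells and for high-confidence, full-length and productive contigs, so failed rearrangements could not be counted. Libraries totalled 26700294 reads (WT) and 22026825 reads (Btla-/-).

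Every TRB contig with TRBV29 as V gene was a member. Shares were compared through exact 95% Clopper-Pearson intervals (SciPy 1.17.1), and shares were called apart where intervals did not overlap. "Other" means all other TRB chains, or cells without TRBV29, of the same library. With 1 library per genotype no p-value was computed. TRAV genes were grouped by subgroup number. Rankings used V genes with at least 100 chains in each library. Germline V ends were read from GRCm38 up to the recombination heptamer, for 21 of 22 V genes, and the longest match from each end of a CDR3 gave the bases kept. The scripts were tested on simulated chains. No doublet caller was run. Summary tables of V gene usage, CDR3 length and clones were not used.

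Named TRBJ and TRAV segments were the 3 most used per library and those with intervals apart, named V genes the neighbours in share and the 2 most alike in TRBJ usage, and named CDR3s the most repeated, with the Btla-/- ties of 2 cells shown where both cells had the same alpha chain, a choice made after the values were seen. TRAV6 in WT, the comparisons with TRBV13 and TRBV19, TRBV15, TRBV17 and TRBV31, and the V genes of TRAV11-TRAJ18 cells stand outside this rule. The gene, the lists and the comparisons were chosen with earlier results of these data known. Alternatives were a minimum of 3 UMIs, cells with exactly 1 TRB chain, each distinct chain counted once, leaving out barcodes found in both libraries, cells with exactly 1 TRA and 1 TRB chain, and other summaries.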

Additional observations from a re-analysis of the deposited data

Results flagged for a closer look

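The TRBV29 share minus that of other TRB chains had opposite signs in the libraries for 6 of 12 TRBJ segments, and 3 of these had intervals apart in one library. There was 1 library on each side, and the difference between the libraries was not tested. TRBJ1-2 was -0.59 percentage points in WT and 5.17 in the Btla-/- library. TRBJ1-6 was 6.12 points in WT and -0.0486 in the Btla-/- library. TRBJ2-3 was 0.0852 points in WT and -6.42 in the Btla-/- library. The values near 0 turned with the processing: TRBJ1-6 was 0.0998 points in the Btla-/- library with each distinct chain counted once, and TRBJ2-3 was -0.443 points in WT without barcodes found in both libraries, so that both libraries then pointed the same way. In each case the library with the small difference had overlapping intervals, and so did WT and Btla-/- TRBV29 chains compared directly.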

How the results depend on the processing

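No paired analysis was possible because each genotype had 1 library without a replicate number, and for the same reason no replicate could be left out. Of 200 values recomputed with other filters and summaries, 189 kept their side of the call or stayed within their interval, 7 moved beyond it and 4 lost a call. Among the differences from other chains 3 changed sign, none of them apart before, and besides the TRBJ1-6 and TRBJ2-3 values above this was the WT difference in TRAV11-TRAJ18, at -0.364 points with at least 3 UMIs. Contigs with at least 3 UMIs lowered TRA recovery in TRBV29 cells to 25.4% in WT and 17.9% in the Btla-/- library, took the WT share of TRAV11-TRAJ18 to 0, and left the Btla-/- difference in that share at 4.67 points with overlapping intervals. Counting each distinct chain once gave 2.62 points for that difference, where identical alpha chains of different cells were dropped by construction. With only beta chains collapsed, an alternative chosen after seeing the data, it was 5.02 points with intervals apart. Distinct chains also gave a mean length difference of -0.258 residues and 3.94 points for TRBJ1-5, both in WT and with overlapping intervals. The mean was 18.2 UMIs in WT and 15.004 in the Btla-/- library in place of medians of 14 and 12. At least 1 hydrophobic residue at the positions of the doublet was present in 19.4% of TRBV29 chains in both. The weighting of CDR3 length by TRBJ usage was also chosen after seeing the data. Pairing was known only for the cells with an alpha chain, and why it was missing from the others was not tested.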
